A study of Mus musculus with 16 samples.

Results

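Metallothionein genes and genes of the zinc transporter families were measured in cultured mouse liver tumor cells exposed to sorafenib. The set held 10 of the 40840 genes of the count table, taken by symbol in all 4 groups: the metallothioneins Mt1 and Mt2, the metal-sensing transcription factor Mtf1, the exporters Slc30a1, Slc30a4 and Slc30a10, and the importers Slc39a4, Slc39a8, Slc39a10 and Slc39a14. The cells were p53-/-; Myc hepatoblasts, a cell line from mouse liver progenitors that lack the tumor suppressor p53 and overexpress the oncogene Myc. Every group carried both alterations, so no library shows the genes without them, and the line is an in vitro model of hepatocellular carcinoma with no other liver cells around it. Cells received sorafenib, a kinase inhibitor used against liver cancer, at 8.5 µM, or its solvent DMSO, for 48 hours or 7 days, with 4 libraries in each of the 4 groups. No label says that the replicates were separate cultures, so p-values measure only the spread between these libraries, which may be technical.

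Zinc is needed by many enzymes and transcription factors but is harmful as the free ion. Metallothioneins are small cysteine-rich proteins that bind zinc, copper and cadmium and react with oxidants. SLC30 proteins move zinc out of the cytosol, across the plasma membrane or into vesicles, and SLC39 proteins move it into the cytosol. Mtf1 binds zinc and then activates metallothionein genes and Slc30a1 through metal response elements in their promoters, and it is known to lower Slc39a10 when zinc is plentiful. Liver cells are a main site of metallothionein production, which also responds to glucocorticoids and interleukin 6.

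Libraries held 16586254 to 30828427 counted reads, with a median of 26360677. Sorafenib 48 hours replicate 2 stood apart: genes that follow chr14:103887645 (GRCm39) in genome order were lower in it by 0.725 on the log2 scale, relative to its other genes and its group. This stretch held 3905 of the 18033 tested genes with a position, and among the 10 genes only Slc39a4 lies in it. Other libraries also differed from their group. A chi-square per gene was taken over the 10660 genes that averaged 100 counts or more. It was 53.1 to 71.5 between DMSO 7 days replicate 4 and the other 3 of its group (1.94 to 3.2 among those 3). Between sorafenib 48 hours replicate 2 and its group it was 32.6 to 38. With DMSO at 48 hours it was 18.7 to 42.7 between replicates 1 or 4 and 2 or 3, and 5.09 and 5.95 within these pairs. Leaving out any 1 library changed no call of the 10 genes for the drug at 48 hours or at 7 days. The hepatoblast label was borne out in part. Of 11 hepatoblast markers, 7 or 8 in each group averaged 10 normalized counts or more, led by Dlk1, but Hnf4a was at 0 in every library and Alb at or near 0. The summed level of these 11 markers ran from 35100 to 36400 normalized counts with DMSO and from 13000 to 14900 with sorafenib at 48 hours, and from 18900 to 20700 and from 7090 to 7360 at 7 days. Of 7 fibroblast and stellate markers, 6 reached that average in each group, with sums of 116000 to 118000 and 126000 to 139000 at 48 hours and of 89700 to 94300 and 63500 to 65100 at 7 days, and Lrat at 0. The hepatoblast sum rests mainly on Dlk1 (32230 normalized counts with DMSO at 48 hours) and was lower with sorafenib at both times, but the markers did not all move one way. Of 9 tested, 2 rose and 5 fell at 48 hours and 3 rose and 6 fell at 7 days. Of all tested genes, 26.9% were higher and 27.7% lower at 48 hours, and 28.9% and 27.9% at 7 days. These shares also stand beside the counts of the other marker lists below. Sox9 (log2 1.64 and 1.37) and Foxa2 (1.77 and 0.84) were higher at both times and Cdh1 (1.39) at 7 days. The fibroblast sum, lower with sorafenib at 7 days, rests on Col1a1 and Col3a1, and there Col1a1 rose (log2 0.31) and Col3a1 fell (log2 -2.13). Of 6 tested fibroblast and stellate markers, 3 rose and 2 fell at 48 hours and 2 rose and 4 fell at 7 days. The 5 endothelial markers summed to 57.7 to 98 normalized counts with DMSO and 119 to 153 with sorafenib at 48 hours, and to 36.8 to 61.3 and 198 to 230 at 7 days, and of 4 tested, Kdr rose (log2 1.32 and 2.65) and 1 fell at each time. Leukocyte markers summed to at most 88.1. The part of these markers in the results below was not tested. Single markers named here besides those of the rule were chosen after their values were seen.

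Matches to the motif of the metal response element, through which Mtf1 is known to act, are shown first. They lie before the start codons of both metallothionein genes and of Slc30a1. Mt1 lies at chr8:94905710-94906955 and Mt2 at chr8:94898819-94900207, both on the plus strand of GRCm39. The motif searched was TGCACNC or TGCGCNC on either strand, within 400 bases before the annotated start codon. It was found 5 times for Mt1 and 6 times for Mt2. At least as many matches were found for 0.285% and 0.083% of the 19276 genes with such a window. The count depends on the window: in the 250 bases before the start of the canonical transcript, Mt1 had 1 match and Mt2 had 2. At least 1 match was found there for 23.3% of 19302 genes and at least 2 for 5.2%. Each match is printed with 10 bases on either side along the gene's own strand, with the motif (or its reverse complement) in capitals.

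Mt1 site 1, chr8:94905694-94905700: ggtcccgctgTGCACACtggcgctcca

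Mt1 site 2, chr8:94905719-94905725: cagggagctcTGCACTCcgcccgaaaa

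Mt1 site 3, chr8:94905737-94905743: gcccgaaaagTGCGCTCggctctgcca

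Mt1 site 4, chr8:94905801-94905807: accgcctgctGGGTGCAaaccctttgc

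Mt1 site 5, chr8:94905815-94905821: gcaaacccttTGCGCCCggactcgtcc

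Mt2 site 1, chr8:94899118-94899124: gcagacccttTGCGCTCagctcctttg

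Mt2 site 2, chr8:94899196-94899202: gggggagggcGTGTGCAggctctgtcc

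Mt2 site 3, chr8:94899250-94899256: aattcgggtcGTGCGCAggcccagggg

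Mt2 site 4, chr8:94899304-94899310: gaaaaagggcGTGTGCAggcggcgggg

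Mt2 site 5, chr8:94899323-94899329: cggcgggggcGCGTGCAtggtgccttc

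Mt2 site 6, chr8:94899357-94899363: gcggagctttTGCGCTCgacccaatac

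Slc30a1 site 1, chr1:191638850-191638856: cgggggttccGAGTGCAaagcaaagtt

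Slc30a1 site 2, chr1:191638923-191638929: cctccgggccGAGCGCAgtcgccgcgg

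The site nearest to the Mt1 start codon began 124 bases before it and the site nearest to that of Mt2 119 bases before it. Mt1 site 1 lies upstream of the annotated start of the gene, at 94905710, and the other 4 lie between that start and the start codon. Mt2 site 1 lies upstream of the start of its canonical transcript, at 94899132, and within the span of a longer annotated form. Slc30a1, the other gene of the set best known as an Mtf1 target, had 2 matches, as did Slc30a4 and Slc30a10, and 10.7% of genes had at least 2. Slc39a8 had 1 match, as had 32.9% of genes at the least, and Mtf1, Slc39a4, Slc39a10 and Slc39a14 had none in this window. A match is a description of the letters and shows no binding.

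At 48 hours, 8 of the 10 genes passed edgeR's quasi-likelihood test (false discovery rate, FDR, under 0.05, with Benjamini-Hochberg adjustment over 20444 tested genes), beside 54.6% of all tested genes. Mt1, Mt2, Slc30a4, Slc39a8 and Slc39a14 were higher with sorafenib (5 of 10, beside 26.9% of tested genes), and Slc30a10, Slc39a4 and Slc39a10 were lower (3 of 10, beside 27.7%). At 7 days, 8 of 10 passed again, beside 56.8% of tested genes. The same 5 genes were higher (beside 28.9% of tested genes), and Slc30a1, Slc39a4 and Slc39a10 were lower (beside 27.9%). Of the 10 genes, 7 were called at both times in the same direction, beside 36.5% of tested genes. The 4 libraries of one treatment lay wholly above or below the 4 of the other for 8 genes at 48 hours and 8 at 7 days, as they did for 48% and 56.8% of tested genes. The 48-hour shares include sorafenib 48 hours replicate 2. Its lowered stretch holds 3905 of the 18033 tested genes with a position, but of the 10 genes only Slc39a4. Its effect on these shares is not given here. The median absolute log2 fold change of the 10 genes was 1.07 at 48 hours and 1.56 at 7 days, and that of all tested genes 0.503 and 0.501. The signed median was 0.309 and 0.131, beside -0.0512 and 0.02. At 7 days it lies between the values of Slc39a14 and of Slc30a10, which had at most 1 count per library then. The change in the sorafenib response from 48 hours to 7 days, tested as an interaction of treatment and time, passed for 8 of 10 genes, beside 36.8% of tested genes, with 3 higher (beside 15.5%) and 5 lower (beside 21.3%). With an added limit of 1 on the absolute log2 fold change, 6 genes remained at 48 hours, 6 at 7 days and 4 for the interaction, beside 18%, 20.6% and 9.61% of tested genes. Exact two-sided permutation tests over 4 against 4 libraries, given below for single genes, cannot go under 0.0286.

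**Figure D1:**
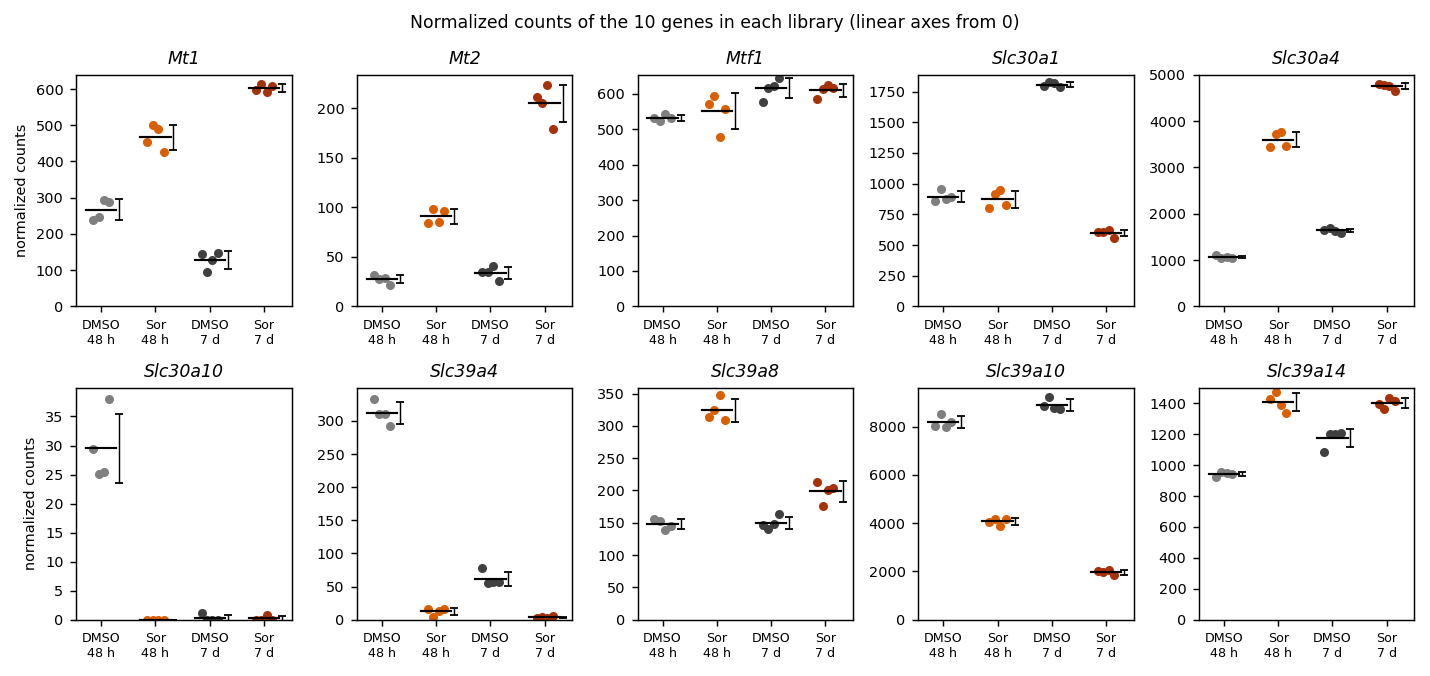
Normalized counts (linear axes from 0) of the 10 genes in the 16 libraries, with 1 point per library, a line at each group's mean and a bar of ± 1 SD (n = 4); Sor stands for sorafenib. Mt1 and Mt2 were highest in the sorafenib libraries of 7 days, Slc30a1 was highest with DMSO at 7 days, Slc30a10 was found above single counts only with DMSO at 48 hours, and Mtf1 lay at similar levels in all groups.

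Both metallothionein genes rose with sorafenib at both times, and more at 7 days. At 48 hours, Mt1 had 239.5, 246, 293 and 289.5 normalized counts (counts scaled to the average library) in DMSO replicates 1 to 4, and 453, 500.5, 489 and 425 in sorafenib replicates 1 to 4. At 7 days it had 145, 94.2, 129 and 148 with DMSO and 598, 614, 590.4 and 608 with sorafenib. Every sorafenib library lay above every DMSO library at both times, and the DMSO libraries of 7 days were below those of 48 hours. The means were 267.1 ± 28.1 and 466.9 ± 34.6 (SD, n = 4) at 48 hours, a 1.75-fold difference (log2 0.81, SE 0.0944, edgeR FDR 3.56e-07, exact permutation p = 0.0286). At 7 days the means of 129 ± 24.8 and 602.7 ± 10.4 (SD, n = 4) differed 4.7-fold (log2 2.23, SE 0.1, edgeR FDR 1.3e-13, exact permutation p = 0.0286). The response grew by 1.43 on the log2 scale (edgeR FDR 8.19e-08). Of the 2 time courses behind it, Mt1 fell by 1.06 on the log2 scale from 48 hours to 7 days in DMSO (edgeR FDR 7.34e-08) and rose by 0.37 in sorafenib (edgeR FDR 0.00203). These are bulk libraries, in which fewer cells of a type and less RNA per cell cannot be told apart. Time points may have been cultured or sequenced apart, so time and run cannot be told apart either.

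Mt2, a near neighbour of Mt1 in the genome, was scarcer and also rose at both times. At 48 hours it had 31.3, 27.8, 28.6 and 21.6 normalized counts in DMSO replicates 1 to 4 and 84.2, 98.3, 84.7 and 96.5 with sorafenib. At 7 days it had 34.6, 34.3, 40.6 and 26 with DMSO and 211, 205.5, 224 and 179 with sorafenib. The sorafenib libraries did not overlap the DMSO libraries at either time. The 48-hour means of 27.31 ± 4.09 and 90.93 ± 7.52 (SD, n = 4) differed 3.33-fold (log2 1.73, SE 0.146, edgeR FDR 2.86e-09). The 7-day means of 33.85 ± 6 and 205 ± 18.9 (SD, n = 4) differed 6.03-fold (log2 2.59, SE 0.12, edgeR FDR 2.24e-13). The response grew by 0.86 on the log2 scale (edgeR FDR 0.00207). Unlike Mt1, Mt2 did not pass the test over time in DMSO (log2 0.32, edgeR FDR 0.128, with FDR 0.0461 when DMSO 7 days replicate 4 was left out), and its libraries overlapped there. In sorafenib it rose by 1.18 on the log2 scale from 48 hours to 7 days (edgeR FDR 2.53e-08).

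The balance between both genes shifted, as the plot of Mt1 against Mt2 shows. Mt1 counts were 9.83 times those of Mt2 with DMSO at 48 hours (geometric mean, with libraries from 7.66 to 13.4) and 5.14 times with sorafenib (4.4 to 5.78). The ratio was 3.8 with DMSO at 7 days (2.75 to 5.71) and 2.95 with sorafenib (2.64 to 3.4). The log2 ratio was lower with sorafenib at 48 hours, where the groups did not overlap (log2 difference -0.936, exact permutation p = 0.0286, n = 4 against 4). At 7 days the difference of -0.366 did not pass (exact permutation p = 0.229, n = 4 against 4), and the libraries overlapped. Between the times, the log2 ratio differed by -1.37 in DMSO and by -0.8 in sorafenib (exact permutation p = 0.0286 for each). A ratio within a library shows unequal change of the 2 genes and needs no scaling between libraries. The sum of both genes was 294.4 ± 25.7 and 557.8 ± 35.1 normalized counts at 48 hours and 162.9 ± 23.3 and 807.7 ± 14.3 at 7 days, DMSO first (SD, n = 4). The remaining metallothionein genes were close to absent: Mt3 had 5 counts over all 16 libraries and Mt4 had 0, so neither was tested.

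**Figure D2:**
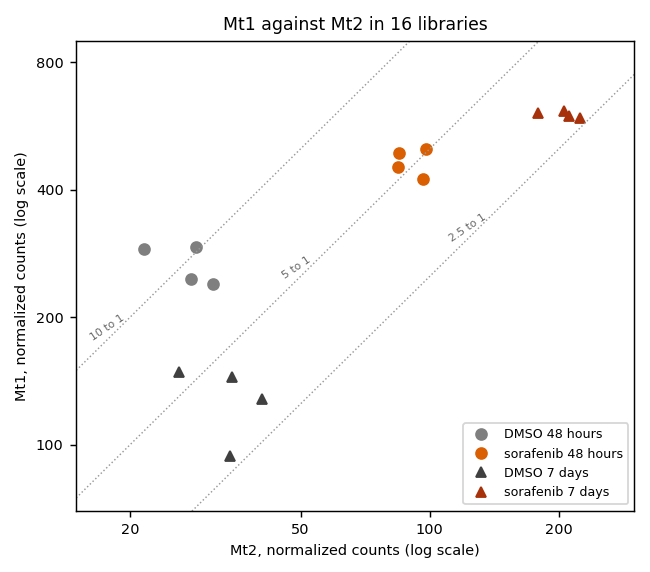
Normalized counts of Mt1 against those of Mt2 (both axes log scale) in the 16 libraries, with circles for 48 hours, triangles for 7 days and dotted lines at fixed ratios of Mt1 to Mt2. The DMSO libraries of 48 hours lie around the line of 10 to 1 (ratios 7.66 to 13.4), and the sorafenib libraries of 7 days near that of 2.5 to 1 (ratios 2.64 to 3.4).

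Mtf1 itself was not detectably altered by the drug. Its means were 532.8 and 551.1 normalized counts at 48 hours and 616 and 609.8 at 7 days, DMSO first, and the libraries overlapped at both times. The log2 fold change was 0.04 at 48 hours (edgeR FDR 0.584, 95% interval from -0.073 to 0.155) and -0.01 at 7 days (edgeR FDR 0.841, 95% interval from -0.123 to 0.094), and its sign changed under other scalings. Mtf1 was higher at 7 days than at 48 hours by 0.21 on the log2 scale in DMSO (edgeR FDR 0.00368). In sorafenib the same comparison gave 0.16 (edgeR FDR 0.0388), with overlapping libraries, and the call was lost when any of 4 libraries was left out (sorafenib 48 hours replicate 3, with FDR 0.0991, or sorafenib 7 days replicates 2, 3 or 4, with FDR 0.075, 0.0918 and 0.0777). The RNA level of Mtf1 does not measure its binding of zinc or its place in the cell.

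The exporters split 3 ways. Slc30a1, the plasma membrane zinc exporter and a known Mtf1 target, moved opposite to the metallothioneins at 7 days. At 48 hours it had 855, 957, 879 and 890.1 normalized counts in DMSO replicates 1 to 4 and 803, 916, 949.9 and 822 with sorafenib. At 7 days it had 1795, 1826, 1819 and 1784 with DMSO and 604, 609.9, 622 and 561 with sorafenib. The groups overlapped at 48 hours, whereas at 7 days every sorafenib library was below every DMSO library of either time. The difference at 48 hours did not pass (log2 -0.04, edgeR FDR 0.604, 95% interval from -0.140 to 0.068). At 7 days the mean was 1806 ± 20 with DMSO and 599.1 ± 26.7 with sorafenib (SD, n = 4), a 3.01-fold lower level (log2 -1.59, SE 0.0522, edgeR FDR 8.89e-16). The interaction was -1.56 on the log2 scale (edgeR FDR 2.18e-12). Slc30a1 rose 2.02-fold from 48 hours to 7 days in DMSO (edgeR FDR 2.16e-12), over the same interval in which Mt1 fell, and fell by 0.54 on the log2 scale in sorafenib (edgeR FDR 1.11e-07).

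Slc30a4, which carries zinc into vesicles, was the exporter of the 3 that rose with sorafenib. It had 1107, 1054, 1061 and 1048 normalized counts in DMSO and 3443, 3721, 3757 and 3466 in sorafenib replicates 1 to 4 at 48 hours. At 7 days it had 1650, 1686, 1631 and 1586 in DMSO and 4800, 4789, 4762 and 4660 in sorafenib. All sorafenib libraries were above all DMSO libraries, with narrow spread in each group. The means differed 3.37-fold at 48 hours (log2 1.75, SE 0.0367, edgeR FDR 1.16e-18) and 2.9-fold at 7 days (log2 1.54, SE 0.0356, edgeR FDR 4.02e-18). The response was smaller at 7 days by 0.22 on the log2 scale (interaction -0.22, edgeR FDR 0.00186), a call that was lost when libraries were scaled by total counts (interaction -0.12, FDR 0.114). The level rose over time in both treatments, by 0.62 on the log2 scale in DMSO and by 0.40 in sorafenib.

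Slc30a10, a manganese exporter of the plasma membrane, was detected above single counts in 1 group only. The DMSO libraries of 48 hours held 30, 29, 25 and 44 counts, and the 4 sorafenib libraries of 48 hours held 0. At 7 days, 1 DMSO library and 1 sorafenib library held 1 count each and the other 6 held 0. At 48 hours the level was therefore at least 7.86-fold lower with sorafenib, taking 3 counts per library as the most that a count of 0 allows (edgeR FDR 5.62e-08, exact permutation p = 0.0286). In DMSO, 128 counts at 48 hours stood against 1 count at 7 days, a ratio of 129 after scaling, with a 95% counting interval from 22.7 to 5120. No fold change at 7 days is given, since both groups were under the level of 3 counts, and no difference between treatments was detectable there at this depth. The interaction passed (edgeR FDR 0.0235) but rests on single counts, since it was lost without sorafenib 7 days replicate 3 (FDR 1).

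**Figure D3:**
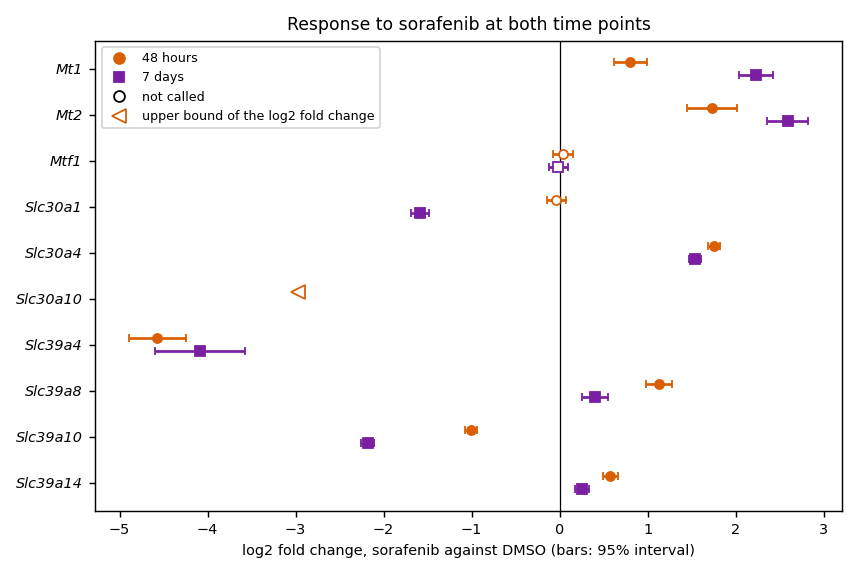
Log2 fold change of sorafenib against DMSO (x axis) for the 10 genes at 48 hours (orange circles) and 7 days (purple squares), with bars for the 95% interval, filled where the edgeR FDR is under 0.05. Slc30a1 is near 0 at 48 hours and at -1.59 at 7 days, and Slc39a4 lies lowest among the values drawn with an interval. The open triangle marks only an upper bound for Slc30a10 at 48 hours. For that gene no fold change at 7 days is drawn.

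Among the importers, Slc39a4 and Slc39a10 fell with sorafenib, and Slc39a8 and Slc39a14 rose. Slc39a4, the importer of dietary zinc that is mutated in the zinc deficiency acrodermatitis enteropathica, had 333, 309.7, 310.4 and 293 normalized counts with DMSO at 48 hours. With sorafenib the same replicates had 16.8, 4.54, 13.3 and 15.9, from 12, 3, 14 and 14 counts. At 7 days it had 77.8, 55.7, 57 and 57.5 with DMSO and 2.25, 4.06, 2.62 and 4.92 with sorafenib, the latter from 2, 5, 3 and 5 counts. All sorafenib libraries were far below the DMSO libraries, and DMSO itself was lower at 7 days. The level was 23.8-fold lower with sorafenib at 48 hours (log2 -4.57, SE 0.164, edgeR FDR 3.79e-15) and 17-fold lower at 7 days (log2 -4.08, SE 0.26, edgeR FDR 3.52e-11). Summed counts gave ratios of 23.9 (95% counting interval from 17.6 to 33.2) and 17.5 (from 10.4 to 31.7). Without sorafenib 48 hours replicate 2, in which the stretch holding Slc39a4 was low, the 48-hour mean was 15.4 ± 1.82 (SD, n = 3) and the log2 fold change -4.35 (FDR 6.4e-29). The responses at both times did not pass a test of their difference (interaction 0.49, edgeR FDR 0.485). In DMSO, Slc39a4 fell by 2.34 on the log2 scale from 48 hours to 7 days (edgeR FDR 1.77e-12). In sorafenib it fell by 1.85 (edgeR FDR 0.000669), with libraries that overlapped (exact permutation p = 0.0571).

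Slc39a10, a plasma membrane zinc importer, was the most abundant of the 10 genes per length with DMSO and fell further at 7 days. It had 8042, 8513, 7986 and 8217 normalized counts in DMSO and 4037, 4183, 3898 and 4169 in sorafenib replicates 1 to 4 at 48 hours. At 7 days it had 8862, 9244, 8760 and 8754 in DMSO and 2011, 1957, 2040 and 1837 in sorafenib. The groups did not overlap at either time, nor did the sorafenib groups overlap each other. The level was 2.01-fold lower with sorafenib at 48 hours (log2 -1.01, SE 0.0364, edgeR FDR 4.32e-15) and 4.54-fold lower at 7 days (log2 -2.18, SE 0.0378, edgeR FDR 5.79e-20). The interaction was -1.17 (edgeR FDR 6.36e-13). In DMSO the level differed by 0.12 on the log2 scale between the times (edgeR FDR 0.00782), a call lost under scaling by total counts (log2 0.06, FDR 0.211).

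Slc39a8 and Slc39a14 are closely related importers that carry zinc, manganese and iron. Slc39a8 had 139 to 156 normalized counts with DMSO and 309 to 348 with sorafenib at 48 hours, and 140.5 to 163 and 176 to 213 at 7 days. It rose 2.19-fold at 48 hours (log2 1.13, SE 0.0746, edgeR FDR 6.5e-11) and 1.32-fold at 7 days (log2 0.40, SE 0.0767, edgeR FDR 0.000142), so its response was smaller at 7 days (interaction -0.73, edgeR FDR 1.73e-05). Its DMSO levels overlapped between the times (log2 0.01, FDR 0.92), and with sorafenib it fell by 0.71 (edgeR FDR 1.14e-07). Slc39a14 had 922 to 954 normalized counts with DMSO and 1336 to 1473 with sorafenib at 48 hours, and 1086 to 1207 and 1365 to 1435 at 7 days. It rose 1.49-fold at 48 hours (log2 0.58, SE 0.0418, edgeR FDR 2.72e-10) and 1.19-fold at 7 days (log2 0.25, SE 0.0406, edgeR FDR 1.96e-05), with an interaction of -0.32 (edgeR FDR 0.000161). Over time it rose in DMSO (log2 0.32, edgeR FDR 1.91e-06), while the sorafenib groups overlapped (FDR 0.958).

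Over time alone, 8 of the 10 genes passed in DMSO, beside 49.4% of tested genes. Mtf1, Slc30a1, Slc30a4, Slc39a10 and Slc39a14 were higher at 7 days (beside 23.9% of tested genes), and Mt1, Slc30a10 and Slc39a4 were lower (beside 25.5%). In sorafenib 8 of 10 passed, beside 39.7% of tested genes, with Mt1, Mt2, Mtf1 and Slc30a4 higher (beside 17.5%) and Slc30a1, Slc39a4, Slc39a8 and Slc39a10 lower (beside 22.3%). With the added limit of 1, 4 and 3 genes remained, beside 11% and 8.45% of tested genes. These comparisons share libraries with the comparisons of the drug, so they are not separate evidence. Mt1 and Slc30a1 changed in opposite directions in both treatments.

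The order of the genes by level changed with treatment. On the scale of normalized counts per kilobase of exon, Slc39a10 led with DMSO at 48 hours (673 ± 19.5, SD, n = 4), before Mt1 (214 ± 22.5), Slc30a4 (181 ± 4.59) and Slc30a1 (158 ± 7.69). Slc39a14 (77.9 ± 1.15) and Slc39a4 (74.8 ± 3.98) were next and overlapped, before Mtf1 (58.6 ± 0.949), Mt2 (28.7 ± 4.3), Slc39a8 (18.8 ± 1.01) and Slc30a10 (3.83 ± 0.777). With sorafenib at 7 days, Slc30a4 led (807 ± 10.8), followed by Mt1 (484 ± 8.36), Mt2 (216 ± 19.9) and Slc39a10 (161 ± 7.4), with no overlap between these neighbours. Slc30a4 also led with sorafenib at 48 hours (610 ± 28), where Mt1 (375 ± 27.8) and Slc39a10 (334 ± 10.9) overlapped, and Slc39a10 led with DMSO at 7 days (731 ± 19). Per kilobase of the canonical transcript, Slc39a14 ranked above Slc30a1, and Slc39a8 above Mt2, with DMSO at 48 hours, and Slc39a10 came first with sorafenib at 48 hours and stood above Mt2 (304 against 274) with sorafenib at 7 days. On the same scale Slc39a14 ranked above Mt1 with DMSO at 7 days, and above Slc30a1 with sorafenib at 48 hours, where Slc39a8 ranked above Mtf1. For 6 of the genes (Mtf1, Slc30a1, Slc30a4, Slc30a10, Slc39a8 and Slc39a10) the annotation holds an overlapping gene on the opposite strand, and the strand setting of the counting is not given in the sources used here.

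**Figure D4:**
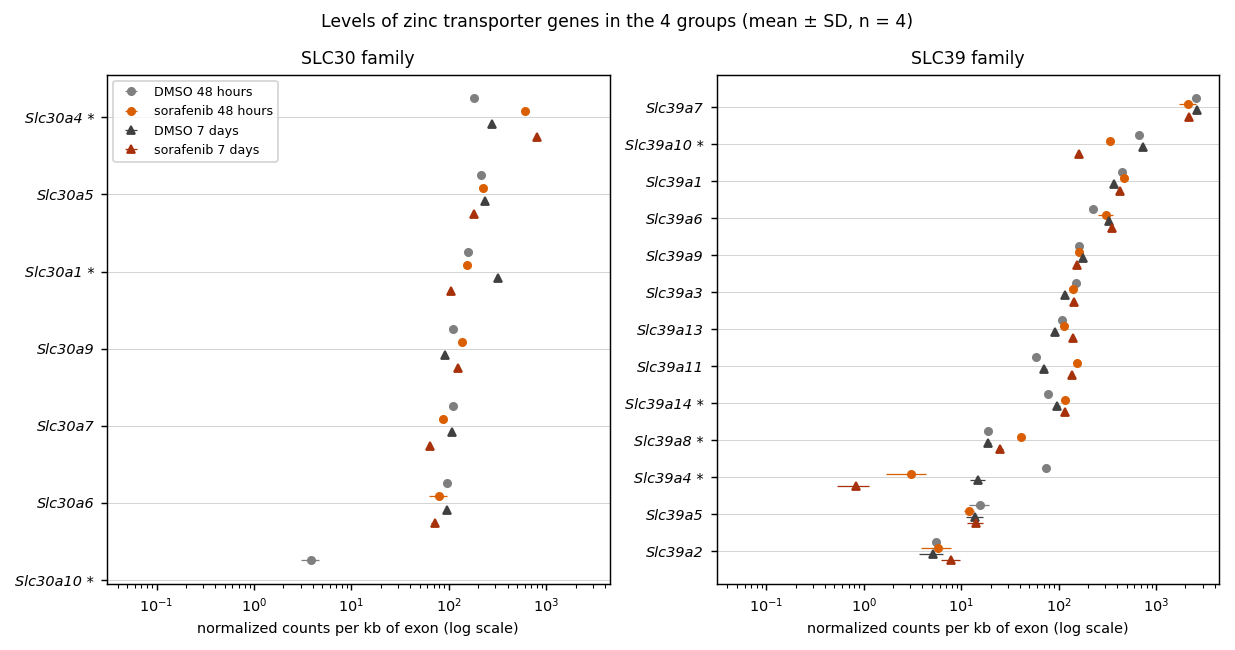
Normalized counts per kilobase of exon (log scale) of the SLC30 genes (left) and SLC39 genes (right) that reached a mean of 10 normalized counts in any group, as group mean ± SD (n = 4), with circles for 48 hours, triangles for 7 days and orange or red for sorafenib. Asterisks mark the genes of the set. Slc39a7 was highest in all groups, Slc30a4 and Slc39a10 moved in opposite directions with sorafenib, and values of Slc30a10 below 0.1 are not drawn.

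The rest of both families was measured alongside. Of the 8 other SLC30 genes, 6 were tested; 1 rose and 2 fell at 48 hours, and 1 rose and 3 fell at 7 days, beside 54.6% and 56.8% of tested genes called. Slc30a7, which loads zinc into the Golgi, differed by log2 -0.35 at 48 hours (FDR 2.06e-06) and -0.73 at 7 days (FDR 3.2e-11). Slc30a9, a mitochondrial zinc exporter, rose by 0.31 and 0.48 (FDR 1.7e-07 and 2.25e-10). Slc30a6 differed by -0.28 and -0.42 (FDR 0.0268 and 0.00155), with -0.15 at 48 hours (FDR 0.0367) without sorafenib replicate 2. Its 48-hour call was lost with a filter of 1 count in any library (FDR 0.0722), with only the libraries of that time (FDR 0.095) and without DMSO 48 hours replicate 2 (FDR 0.0803). Of the 10 other SLC39 genes, 9 were tested; 2 rose and 1 fell at 48 hours, and 5 rose and 2 fell at 7 days, beside the same shares. The count at 48 hours was 2 higher and 2 lower without sorafenib 48 hours replicate 2, a fit for which no share of tested genes is given. Slc39a11 rose most, from 424.6 ± 37.9 to 1101 ± 46.8 normalized counts at 48 hours (SD, n = 4, log2 1.38, edgeR FDR 1.2e-13) and from 510.4 ± 29.8 to 985.1 ± 48.4 at 7 days (log2 0.95, edgeR FDR 2.64e-11). Slc39a13, an importer needed in connective tissue, passed at 7 days (log2 0.60, FDR 5.7e-09) and not at 48 hours (log2 0.04, FDR 0.548), and its interaction passed (0.56, FDR 6.75e-06). Slc39a2 passed at 7 days (log2 0.63, FDR 0.0239) at 19.49 and 30.16 normalized counts on average, a call lost without DMSO 7 days replicate 4 (FDR 0.0898), sorafenib 7 days replicate 2 (FDR 0.0706) or replicate 4 (FDR 0.0701). The median log2 fold change was -0.107 and -0.262 over the 6 SLC30 genes and 0.0418 and 0.217 over the 9 SLC39 genes at 48 hours and 7 days, beside -0.0512 and 0.02 over all tested genes.

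Of 5 other genes reported to respond to Mtf1, 3 rose and 2 fell at 48 hours, beside 26.9% and 27.7% of tested genes, and 4 rose and 1 fell at 7 days, beside 28.9% and 27.9%. Their median log2 fold change was 0.376 and 0.581, beside -0.0512 and 0.02 over all tested genes. Selenow, which encodes a small selenoprotein, went from 667.7 ± 18.9 to 1107 ± 93.7 normalized counts at 48 hours and from 568.8 ± 14 to 1374 ± 21.5 at 7 days (SD, n = 4; log2 0.73 and 1.27, edgeR FDR 1.07e-10 and 1.14e-14). Its response grew with time (interaction 0.55, edgeR FDR 2.83e-06). Csrp1 rose by 1.25 and 0.58 on the log2 scale (FDR 3.29e-17 and 4e-12). Ndrg1, a gene also induced by low oxygen, fell at 48 hours (log2 -0.81, FDR 1.62e-06, and -0.68 without sorafenib replicate 2) and rose at 7 days (log2 1.69, FDR 5.35e-11). Slc40a1, chosen for mention after its values were seen, fell at both times (log2 -0.57 and -1.12, FDR 1.3e-07 and 1.93e-11).

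Copper and manganese share some of the transporters and binding proteins of zinc. Of 12 tested genes of copper transport, 2 rose and 3 fell at 48 hours, and 3 rose and 6 fell at 7 days, beside 54.6% and 56.8% of tested genes called. Without sorafenib 48 hours replicate 2 the 48-hour count was 5 higher and 3 lower. The share of tested genes called without that library is not given, which also holds for manganese transport below. Atp7b, the copper pump of liver cells, fell from 235.3 ± 23.1 to 22.79 ± 2.08 normalized counts at 48 hours (SD, n = 4, log2 -3.37, edgeR FDR 2.06e-14) and from 29.43 ± 1.36 to 8.192 ± 3.47 at 7 days (log2 -1.79, edgeR FDR 5.96e-07). Its DMSO level was, like that of Slc39a4 and Slc30a10, lower at 7 days than at 48 hours (log2 -3.00, FDR 8.86e-14). Steap4, a metalloreductase, fell from 98.92 ± 9.06 to 10.45 ± 1.58 normalized counts at 48 hours and from 90.24 ± 10.5 to 1.464 ± 1.2 at 7 days (SD, n = 4, edgeR FDR 1.43e-11 and 1.96e-13). Cp, which encodes the copper-carrying ceruloplasmin, rose by 1.79 and 1.27 (FDR 3.34e-14 and 1.92e-12). Of 4 tested genes of manganese transport, 2 fell and 0 rose at 48 hours and 3 fell and 0 rose at 7 days (27.7% and 27.9% of tested genes were lower), with 1 higher at 48 hours without sorafenib replicate 2. Atp2c1, a Golgi pump for calcium and manganese, differed by -0.45 and -0.67 (FDR 1.41e-09 and 2.22e-12), Atp13a1 by -0.34 and -0.39 (FDR 3.56e-06 and 4.22e-07) and Tmem165 by 0.01 and -0.16 (FDR 0.794 and 0.00218).

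Metallothionein genes also answer to glucocorticoids and to interleukin 6, and genes of both responses were listed for that reason. Of 8 glucocorticoid-responsive genes, 3 rose and 3 fell at 48 hours, and 4 rose and 2 fell at 7 days, beside 54.6% and 56.8% of tested genes called. Without sorafenib replicate 2 the counts at 48 hours were 4 and 3, with no matching share of tested genes given. Tsc22d3 rose by 1.00 on the log2 scale at 48 hours (FDR 9.1e-09, and by 1.10 without sorafenib replicate 2) and by 1.77 at 7 days (FDR 2.01e-12). Sgk1, a kinase gene, rose by 1.65 at 7 days (FDR 9.34e-15, beside 0.01 and FDR 0.957 at 48 hours), and Dusp1, a phosphatase gene, by 0.61 and 1.67 (FDR 0.000125 and 5.18e-12). Fkbp5, in contrast, fell at both times (log2 -0.53 and -0.81, FDR 0.000233 and 1.33e-06), a gene chosen for mention after its values were seen. Of 7 tested genes of the interleukin 6 and STAT3 response, 3 rose and 3 fell at 48 hours, and 2 rose and 3 fell at 7 days, beside the same shares. Socs3, a feedback inhibitor of this pathway, fell from 1202 ± 56.7 to 398.3 ± 73.2 normalized counts at 48 hours and from 916.3 ± 13.4 to 219.6 ± 10.9 at 7 days (SD, n = 4; log2 -1.60 and -2.06, edgeR FDR 4.98e-13 and 1.99e-14). Hp, encoding haptoglobin, was scarce and fell at 7 days (log2 -3.31, FDR 3.56e-08). Its 48-hour call (log2 -0.95, FDR 0.0305) was lost with a filter of 1 count in any library (FDR 0.0564), with a replicate block (FDR 0.0741) and without DMSO 48 hours replicate 1 or 2 or sorafenib replicate 4 (FDR 0.0725, 0.0577 and 0.0845). Lcn2, encoding lipocalin 2, went from 0.9334 to 14.65 normalized counts at 48 hours (FDR 1.09e-05) and from 0 in all DMSO libraries to 24.98 at 7 days (FDR 4.55e-08).

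The genes whose log2 normalized counts followed each metallothionein most closely over the 16 libraries differed between Mt1 and Mt2. For Mt1 they were Prmt7 (Pearson r = 0.9879), Smim19 (0.9865), Arhgef40 (0.9843), Helz2 (0.9842) and Gnb5 (0.9823), out of 10645 genes that averaged 100 normalized counts or more. For Mt2 they were Cast (r = 0.9883), Arl5a (0.9880), Map3k3 (0.9871), Mcub (0.9865) and Arhgap17 (0.9858), out of 10646. The 16 points fall into 4 groups and share the treatment and time contrasts, so these values are a description with no test. The genes near Mt1 were lower with DMSO at 7 days than at 48 hours, as Mt1 was, which follows from how they were picked. Smim19 had 163.5, 263.2, 99.55 and 289.2 normalized counts on average with DMSO and sorafenib at 48 hours and with DMSO and sorafenib at 7 days. Of the genes near Mt2, Mcub, which encodes a subunit of the mitochondrial calcium channel, had means of 27.85, 112.6, 31.23 and 291.5 in the same order.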

How the data were processed

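The authors isolated RNA with a column kit and prepared stranded, poly(A)-selected libraries (Illumina Stranded mRNA Prep). Per the labels, reads were processed with STAR 2.7.1a, featureCounts 2.0.6 and DESeq2 1.40.2 on GRCm39, and the authors deposited 1 table of raw counts per gene for the 16 libraries. The annotation and strand setting of the counting are not given in the sources used here. Groups came from the labels, and the dose from the study's methods.

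Genes with at least 10 counts in total were kept (20444 of 40840). All 16 libraries entered 1 edgeR 4.0.16 model (R 4.3.3, TMM scaling, 4 group coefficients, no block), with quasi-likelihood tests and Benjamini-Hochberg adjustment over all tested genes and an FDR threshold of 0.05. Normalized counts are counts divided by the TMM-corrected library size and multiplied by its geometric mean. Permutation tests (scipy 1.17.1) were exact and two-sided, on log2 values with a pseudocount of 0.5 for single genes. Counting intervals are at 95% and cover counting error only. The pipeline was tested on simulated data. Positions, lengths and sequences are from GRCm39 with GENCODE annotation. Alternatives were DESeq2 1.42.0, other scalings and filters, a replicate block, an offset for the lowered stretch of 1 library, and leaving out each library.

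The 10 genes and all lists were chosen with earlier results of these data known. One marker of the hepatoblast list is not reported here. Named besides the 10 were up to 3 genes per list with the largest absolute change among those called that averaged 10 normalized counts or more, and the 5 genes most like Mt1 and Mt2. Same-numbered libraries did not deviate together (mean r = -0.00825 at 48 hours and 0.0716 at 7 days).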

Additional observations from a re-analysis of the deposited data

Results flagged for a closer look

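The response to sorafenib differed between 48 hours and 7 days for 8 of the 10 genes by the edgeR interaction test, beside 36.8% of tested genes. The log2 fold change at 7 days minus that at 48 hours was 1.43 for Mt1 and 0.86 for Mt2, whose responses grew. It was -1.56 for Slc30a1, which passed only at 7 days, and -1.17 for Slc39a10, whose fall deepened. It was -0.22 for Slc30a4, -0.73 for Slc39a8 and -0.32 for Slc39a14, which rose less at 7 days. For Slc30a10 the interaction had an FDR of 0.0235 with 3 of the 4 groups at or under the level of 3 counts.

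Single libraries stood apart from the other 3 of their group for 2 genes with more than single counts, among 39 sets searched. Chance alone gives this in about 1 of 20 sets, so the number found is near what chance gives. Slc39a14 in DMSO at 7 days was low in replicate 1 (1086 normalized counts against 1201 to 1207), a gap of 0.951 of the group's range. Slc39a4 in DMSO at 7 days was high in replicate 1 (77.8 against 55.7 to 57.5), a gap of 0.918. Slc30a10 at 7 days had 1 count in 1 of 4 DMSO libraries and in 1 of 4 sorafenib libraries with 0 in the rest, where the gap is 1 by construction.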

How the results depend on the processing

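Of the 10 genes, 8 were called in each of the 5 comparisons, beside 36.8% to 56.8% of tested genes. An added limit of 1 on the absolute log2 fold change left 4 for the interaction, 4 over time in DMSO and 3 over time in sorafenib. These stood beside 9.61%, 11% and 8.45% of tested genes. The same limit left 6 at 48 hours and 6 at 7 days for the drug, beside 18% and 20.6%. Leaving out each library in turn moved the log2 ratio of Mt1 to Mt2 at 48 hours (sorafenib minus DMSO) only between -1.056 and -0.787, but with 4 against 3 libraries the exact permutation test cannot go under p = 0.0571. Among the 10 genes, the direction turned only for values that had not passed. For Mtf1 at 48 hours it became -0.030 with total counts and -0.005 with the offset for the lowered stretch, with -0.012 to 0.081 over left-out libraries. For Mtf1 at 7 days it became 0.009 with total counts, 0.008 with a filter of 1 count in any library and 0.011 with 10 counts in every library, with -0.042 to 0.009 over left-out libraries. The Mtf1 interaction became 0.038 with total counts and 0.010 with 10 counts in every library. Slc30a1 at 48 hours became 0.003 with a filter of 1 count in any library. Slc39a8 over time in DMSO became -0.045 with total counts, with -0.032 to 0.044 over left-out libraries. Slc39a14 over time in sorafenib became 0.031 with DESeq2, 0.029 with its size factors in edgeR, 0.031 with total counts, 0.049 with 10 counts in every library and 0.039 with the offset, with -0.016 to 0.029 over left-out libraries. The Mtf1 call over time in sorafenib was lost with a filter of 1 count in any library (FDR 0.0531). The causes were not tested.

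Same-numbered libraries shared only a number. With a replicate block within each time point, 8, 8 and 7 genes were called at 48 hours, at 7 days and for the interaction, the loss being Slc30a10 (FDR 0.091), and 1 of 8 libraries at 48 hours and 3 of 8 at 7 days correlated best with their own number. The block could not be fitted between time points. Depth limits Slc30a10 and, in sorafenib, Slc39a4, which stood at 2 to 14 counts.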
